A study of Homo sapiens with 9 samples.

Results

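The fibroblast growth factor (FGF) ligands and receptors were followed through 32 probe sets, which are all those that the platform annotation gives to exactly 1 gene among FGF2, FGF4, FGF8, FGF13, FGF17, FGF19, FGFR1, FGFR2, FGFR3 and FGFR4. They belong to 10 of 19775 genes with such a probe set, and 54613 probe sets were tested in all. A probe set is a group of short probes whose brightness reports 1 transcript region, and its value here is a normalised log2 intensity, so that a difference of 1 is a doubling. The samples were 9 arrays of RNA from WA09, an established human embryonic stem cell line used at passages 32 to 38. On 3 arrays, called damage here, the cells had been treated for 5 h with DOX, which the labels tie to DNA damage and do not spell out. It is read here as doxorubicin, a drug that traps topoisomerase II on broken DNA. On 3 others, called differentiating, they had spent 2 days in 1 µM retinoic acid (RA) and medium with no FGF added. The last 3, called pluripotent, came from untreated cells. Per the labels' protocols, cells were kept on irradiated mouse embryonic fibroblasts in medium with 4 ng/ml FGF2, or without feeders, and conditioned medium for pluripotent cells on Matrigel was given FGF2 to 10 ng/ml. Which culture gave each array is not stated. The effects of RA and of the missing FGF cannot be told apart in the differentiating arrays. Set directly against the damage arrays, they differ in length of treatment as well, 2 days against 5 h. Treatment, time and missing FGF cannot be told apart in that comparison.

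FGFs are secreted proteins that bind receptor tyrosine kinases of the FGFR family together with heparan sulfate on the cell surface. The receptors pass the signal through RAS to the kinases MEK and ERK, which switch on feedback genes of the DUSP and SPRY families. In human embryonic stem cells FGF2 is the factor added to medium to keep cells pluripotent, and FGF4 is a ligand that pluripotent cells make themselves.

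Markers of pluripotent cells lay above the background limit in all 3 conditions (10 of 10 measured). After DOX 0 of these rose and 2 fell, SOX2 (−0.46 ± 0.08, adjusted p = 0.0055) and TERF1 (−0.42 ± 0.08, adjusted p = 0.0063), and after RA 0 rose and 1 fell, TERF1 (−0.46 ± 0.08, adjusted p = 0.0072). In differentiating arrays 5 of the 10 were higher than in damage arrays and 0 lower. The limit used throughout is 5.00, the 95th percentile of the mean levels of 107 probe sets for olfactory receptors, genes taken as silent in these cells. Of 12 measured p53 targets 12 rose after DOX and 6 after RA, and of 11 measured retinoic acid response genes 0 rose after DOX and 7 after RA, with 0 falls in either list. Over all 19775 genes, each by its brightest probe set, 4.67% rose and 7.40% fell after DOX, and 2.42% rose and 2.43% fell after RA. Medians of single arrays lay between 4.62 and 4.68. Markers of trophoblast and amnion had array means of 5.58 to 5.77 in damage and 6.18 to 6.44 in differentiating arrays, against 5.26 to 5.31 in pluripotent arrays, with 6, 7 and 4 of 12 above the limit. Markers of fibroblasts and stromal cells had array means of 6.12 to 6.14 in damage and 5.81 to 5.87 in differentiating arrays, against 5.82 to 5.89 in pluripotent arrays, with 9, 8 and 8 of 15 above the limit. Of 10 neuroectoderm markers 2 rose and 1 fell after DOX, and 0 rose and 3 fell after RA. Of 10 mesoderm markers 0 rose and 1 fell after DOX, and 1 rose and 0 fell after RA, while of 8 endoderm markers 3 rose and 0 fell after DOX, and 0 rose and 1 fell after RA. Without the third pluripotent array 1 endoderm marker rose and 0 neuroectoderm markers fell after DOX, 2 neuroectoderm markers and 1 mesoderm marker fell after RA, and 2 of 15 fibroblast markers rose after DOX instead of 3. The part of such cells in the results below was not tested. In bulk RNA, fewer cells that express a gene and less RNA per cell cannot be told apart. The labels do not state whether each array had a culture of its own, so the p-values cover no more than the scatter among these arrays, and that scatter may be technical. The third pluripotent array had the lowest array weight of the 9 (0.58, against 1.44 and 1.47 for the other pluripotent arrays). The third damage array was next at 0.69.

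The sequences upstream of FGF2, FGFR3 and FGF13 are shown because FGF2 was the ligand among the 10 genes that rose after DOX, while FGF13 rose after RA and FGFR3 after both. No such sequence was at hand for FGF4 and FGF19, which also rose after RA. Those of FGFR2 and FGFR4 were at hand but are not shown. They are the 250 bases before RefSeq transcript starts on GRCh38.p14, read 5′ to 3′ on the gene's strand, at chr4:122826581-122826830 (plus strand, FGF2), chr4:1793043-1793292 (plus strand, FGFR3), chrX:139205024-139205273 (minus strand, the first FGF13 start) and chrX:138739354-138739603 (minus strand, the other FGF13 start). Capitals mark GC boxes, the letters GGGCGG on either strand.
FGF2: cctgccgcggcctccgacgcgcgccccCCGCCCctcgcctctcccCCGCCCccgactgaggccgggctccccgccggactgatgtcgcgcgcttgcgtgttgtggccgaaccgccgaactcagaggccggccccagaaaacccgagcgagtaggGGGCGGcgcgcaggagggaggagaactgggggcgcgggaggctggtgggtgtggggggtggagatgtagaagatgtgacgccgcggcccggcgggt
FGFR3: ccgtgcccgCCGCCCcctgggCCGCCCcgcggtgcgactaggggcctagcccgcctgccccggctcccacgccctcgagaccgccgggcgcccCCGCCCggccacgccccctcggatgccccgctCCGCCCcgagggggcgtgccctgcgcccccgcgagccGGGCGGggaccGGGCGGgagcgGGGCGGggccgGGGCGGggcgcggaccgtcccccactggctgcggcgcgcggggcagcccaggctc
FGF13, first start: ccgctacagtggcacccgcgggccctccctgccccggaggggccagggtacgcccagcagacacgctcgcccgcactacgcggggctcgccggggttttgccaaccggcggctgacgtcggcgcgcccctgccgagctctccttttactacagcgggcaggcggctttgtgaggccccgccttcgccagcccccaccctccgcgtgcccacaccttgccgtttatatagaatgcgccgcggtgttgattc
FGF13, other start: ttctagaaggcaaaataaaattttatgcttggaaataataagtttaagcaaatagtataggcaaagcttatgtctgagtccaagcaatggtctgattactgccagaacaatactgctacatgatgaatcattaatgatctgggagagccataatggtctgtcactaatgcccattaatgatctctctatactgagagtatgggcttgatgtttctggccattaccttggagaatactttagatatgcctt

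The FGFR3 window held 8 GC boxes and the FGF2 window 3, and both FGF13 windows held 0, where 42.6% of 35116 windows of this length held at least 1. The G and C content was 86.8% for FGFR3, 75.2% for FGF2 and 70.4% and 36.4% for the FGF13 starts, beside a median of 58% over all windows. The EGR site GCGNGGGCG matched 2 times in the FGFR3 window, 1 of these overlapping a GC box, and 8.41% of all windows held it. The first FGF13 window matched the TATA box letters TATAAA on the opposite strand only (10.7% of windows matched on either strand). The other FGF13 window matched the AP-1 pattern TGANTCA, where N is any base, with the letters TGAATCA (6.57% of windows matched the pattern). The retinoid receptor half-site AGGTCA (12.1% of windows), the octamer ATGCAAAT (1.63%) and the p53 half-site (5.57%) matched 0 times in these 4 windows, each searched on both strands. A match is only a match of letters.

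Of the 32 probe sets 21 had a mean above the limit and 11 did not. FGF8 and FGF17, ligands of 1 subfamily that act in gastrulation and brain patterning, had 1 probe set each, both under the limit in every condition. FGF8 had 4.26, 3.94 and 4.11 in damage and 3.81, 4.16 and 4.16 in differentiating arrays, against 4.29, 4.35 and 4.60 in pluripotent arrays. The pluripotent arrays were all higher than the others, but with changes of −0.31 ± 0.12 after DOX and −0.38 ± 0.12 after RA (SE, adjusted p = 0.19 each) neither passed the test. FGF17 ranged from 4.52 to 4.75 in damage and from 4.45 to 4.66 in differentiating arrays, against 4.41 to 4.61 in pluripotent arrays, and its groups overlapped. Of the 11 FGFR2 probe sets 6 lay under the limit, as did 1 of 2 for FGFR3, 1 of 4 for FGFR4 and 1 of 2 for FGF4.

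Of the 32 probe sets 3 rose and 6 fell after DOX (3.20% and 4.52% of all probe sets did), 5 rose and 0 fell after RA (1.47% and 1.48%), and 9 were higher and 2 lower after RA than after DOX (7.11% and 5.13%). Among the 21 above the limit, 3 rose and 6 fell after DOX, where 5.57% and 9.32% of all probe sets above it did. After RA 4 of these 21 rose and 0 fell, where 2.77% and 3.12% did, and 9 were higher and 2 lower in differentiating than in damage arrays, where 14.0% and 9.26% were. Probe sets of 1 gene share its RNA, so they are not independent counts. At an unadjusted p under 0.05 in limma's test, 3 of the 32 were higher and 12 lower after DOX (8.31% and 11.0% of all probe sets), and 8 were higher and 2 lower after RA (5.98% and 6.48%). The median change over the 32 was −0.08 after DOX and 0.05 after RA, beside 0.01 and 0.00 over all probe sets. Without 1 array the count of lower probe sets after DOX ranged from 4 to 8. Without the probe sets that end in s_at or x_at, 0 rose and 2 fell after DOX, and 3 rose and 0 fell after RA. The whole table then gave 1065 higher and 1537 lower after DOX, and 500 and 442 after RA. That setting takes out both FGF2 sets, those of FGF13 and FGFR3, the brightest FGFR1 set and the bright FGFR2 sets. The smaller counts thus reflect probe sets that were left out. Changes are log2 differences with the standard error from limma. Its p-values were adjusted by the method of Benjamini and Hochberg across the whole table. The comparisons of DOX and of RA share the pluripotent arrays.

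FGF2 rose after DOX, and both of its probe sets showed it. The brighter one (204422_s_at) had 9.53, 9.66 and 9.54 in damage and 8.37, 8.33 and 8.58 in differentiating arrays, against 8.76, 8.55 and 8.70 in pluripotent arrays. All damage arrays lay above all others, while the differentiating arrays overlapped the pluripotent ones. The change after DOX was 0.90 ± 0.09 (SE, 1.87-fold, adjusted p = 0.00013), and that of the other probe set (204421_s_at) 0.85 ± 0.09 (adjusted p = 0.0002). After RA they changed by −0.24 ± 0.09 (adjusted p = 0.27) and 0.08 ± 0.09 (adjusted p = 0.83), neither past the test. Set directly against the damage arrays, differentiating arrays were lower by 1.15 and 0.78 on the log2 scale (differences of −1.15 and −0.78, adjusted p = 1.3e-05 and 0.00024).

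FGF4 fell after DOX and rose after RA. Its brighter probe set (206783_at) had 6.38, 5.92 and 6.47 in damage and 8.99, 9.13 and 8.82 in differentiating arrays, against 7.13, 7.24 and 6.95 in pluripotent arrays. The 3 conditions did not overlap: every differentiating array was highest and every damage array lowest. FGF4 fell 1.80-fold after DOX (−0.85 ± 0.14, adjusted p = 0.0042) and rose 3.67-fold after RA (1.88 ± 0.14, adjusted p = 3.1e-05). Between differentiating and damage arrays the difference was 6.61-fold (2.72 ± 0.14, adjusted p = 5.3e-07), and no other of the 32 probe sets differed as much. The second FGF4 probe set (1552982_a_at) lay under the limit in each condition, with 4.35, 4.24 and 4.36 in damage and 4.77, 4.50 and 4.51 in differentiating arrays, against 4.26, 4.20 and 4.15 in pluripotent arrays. It passed the test after RA (0.39 ± 0.09, adjusted p = 0.041), a call lost without any 1 of the 9 arrays (0.30 to 0.44).

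FGF19, an endocrine ligand that needs the co-receptor beta-Klotho in its metabolic role, showed the same order of conditions at a lower level. It had 5.07, 5.34 and 5.12 in damage and 6.49, 6.82 and 6.37 in differentiating arrays, against 5.61, 5.64 and 5.46 in pluripotent arrays. The 3 conditions again did not overlap. The rise after RA was 1.99-fold (0.99 ± 0.12, adjusted p = 0.00085). The change after DOX, −0.40 ± 0.12, did not pass (adjusted p = 0.079, 95% interval −0.66 to −0.13), and the damage mean of 5.17 lay close to the limit. KLB, the beta-Klotho gene, had mean levels of 3.68 in damage, 3.94 in differentiating and 3.62 in pluripotent arrays, all under the limit.

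FGF13 belongs to the FGF homologous factors, which stay inside the cell and bind sodium channels rather than FGF receptors. Its probe set had 8.57, 8.66 and 8.98 in damage and 9.72, 9.91 and 9.70 in differentiating arrays, against 9.0, 8.95 and 9.17 in pluripotent arrays. The differentiating arrays were above all others, and the third damage array overlapped the pluripotent ones. FGF13 rose 1.67-fold after RA (0.74 ± 0.11, adjusted p = 0.0045), while the change after DOX was −0.30 ± 0.11 (adjusted p = 0.16).

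**Figure D1:**
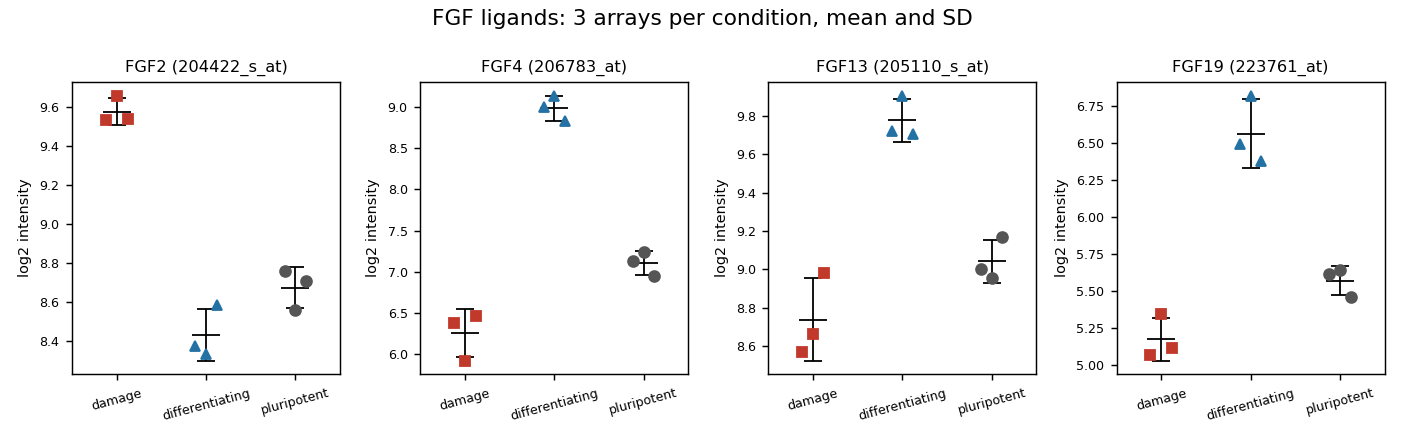
Normalised log2 intensity (y axes, scaled to each gene) of the brightest probe set of FGF2, FGF4, FGF13 and FGF19 on each array. Points are arrays of damage, differentiating and pluripotent cells, bars are the mean and SD of 3 arrays. FGF2 is highest in the damage arrays (mean 9.58, against 8.67 in pluripotent arrays), and the other 3 ligands are highest in the differentiating arrays.

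Among the receptors FGFR3 rose after both treatments, and more after RA. Its brighter probe set (204379_s_at) had 9.63, 9.46 and 9.50 in damage and 10.48, 10.43 and 10.58 in differentiating arrays, against 9.10, 8.95 and 9.10 in pluripotent arrays. The conditions were separate, with the differentiating arrays highest and the pluripotent arrays lowest. The rise was 1.40-fold after DOX (0.48 ± 0.08, adjusted p = 0.0043) and 2.73-fold after RA (1.45 ± 0.08, adjusted p = 3.4e-06). The direct difference between differentiating and damage arrays was 0.97 ± 0.08 (adjusted p = 2.1e-05). The second FGFR3 probe set (204380_s_at) lay under the limit at mean levels of 3.25 in damage, 3.40 in differentiating and 3.13 in pluripotent arrays, and did not pass in either comparison.

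FGFR2 fell after DOX and showed no call after RA. The brightest of its probe sets (203638_s_at) had 9.69, 9.50 and 9.63 in damage and 10.10, 10.04 and 10.19 in differentiating arrays, against 10.07, 10.17 and 10.08 in pluripotent arrays. The damage arrays lay below all others, and the differentiating and pluripotent arrays overlapped. The change was −0.50 ± 0.08 after DOX (1.41-fold lower, adjusted p = 0.0028) and 0.01 ± 0.08 after RA (adjusted p = 0.99, 95% interval −0.17 to 0.18). Of the 5 FGFR2 probe sets above the limit 3 fell after DOX, where 9.32% of all probe sets above it did. The others of these 3 were 208228_s_at (−0.43 ± 0.08, adjusted p = 0.0092) and 203639_s_at (−0.56 ± 0.15, adjusted p = 0.04). The last call was lost on leaving out any 1 of the 9 arrays other than the first damage or the third pluripotent array, with changes of −0.58 to −0.42 and adjusted p = 0.05 to 0.16. The other two above the limit gave −0.49 ± 0.15 (211401_s_at, adjusted p = 0.078) and −0.01 ± 0.10 (208234_x_at, adjusted p = 0.97). All 5 have the suffix s_at or x_at, which marks probes that can match several transcripts. The brightest FGFR2 probe set without it (240913_at) lay under the limit and was at 0.05 ± 0.08 after DOX (adjusted p = 0.82).

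FGFR1 probe sets disagreed with each other. The brightest (211535_s_at) had 10.00, 9.78 and 9.70 in damage and 10.45, 10.39 and 10.41 in differentiating arrays, against 10.18, 10.26 and 10.16 in pluripotent arrays. The 3 conditions did not overlap on it. It fell by 0.37 after DOX on the log2 scale (SE 0.09, adjusted p = 0.023) and was at 0.22 ± 0.09 after RA (adjusted p = 0.31). The DOX call was lost without the second or the third damage array, or without the first or the second pluripotent array (−0.38 to −0.31, adjusted p = 0.072 to 0.096). A dimmer probe set (207822_at) gave 6.62, 5.86 and 5.97 in damage and 7.80, 7.67 and 7.84 in differentiating arrays, against 7.30, 7.03 and 7.21 in pluripotent arrays. It fell 2.04-fold after DOX (−1.03 ± 0.17, adjusted p = 0.0035) and was 3.08-fold higher in differentiating than in damage arrays (1.62 ± 0.17, adjusted p = 9.7e-05). In contrast, the second brightest (226705_at) was at 0.13 ± 0.07 after DOX (adjusted p = 0.38) and 0.23 ± 0.07 after RA (adjusted p = 0.18). The third brightest (222164_at) was at −0.67 ± 0.20 after DOX (adjusted p = 0.077) and 0.36 ± 0.20 after RA (adjusted p = 0.55). After DOX 207937_x_at, 210973_s_at and 215404_x_at were at −0.13, −0.22 and −0.03, none of them called. In all, 2 of 7 FGFR1 probe sets fell after DOX and 0 rose, where 9.32% and 5.57% of all probe sets above the limit did. All 7 lie above it. In differentiating against damage arrays 3 of 7 were higher, where 14.0% were.

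None of the 4 FGFR4 probe sets passed the test in any of the 3 comparisons, but the brightest lay near the threshold after DOX. Its brightest (204579_at) had 7.76, 7.33 and 7.48 in damage and 7.85, 7.76 and 7.79 in differentiating arrays, against 8.02, 8.0 and 7.77 in pluripotent arrays. The damage arrays lay below all others, though the first damage and second differentiating arrays nearly met (7.7554 and 7.7596). The change of this probe set after DOX was −0.41 ± 0.11 (adjusted p = 0.051, 95% interval −0.66 to −0.16). It was called lower after DOX in 9 of 19 other settings, with adjusted p-values of 0.014 to 0.18 over all 19. After RA it was −0.13 ± 0.11 (adjusted p = 0.74, 95% interval −0.38 to 0.11). Of the dimmer FGFR4 probe sets above the limit, 1554962_a_at was at 0.15 ± 0.08 after DOX and 211237_s_at at −0.19 ± 0.10 (adjusted p = 0.34 and 0.31).

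**Figure D2:**
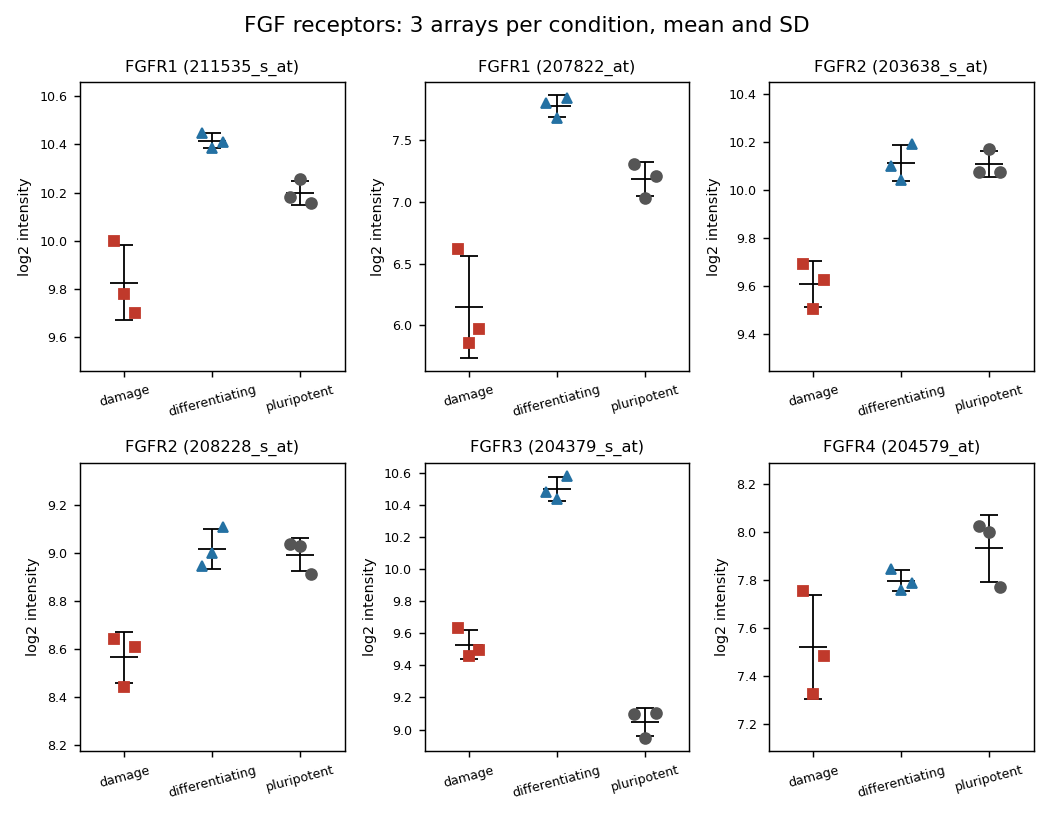
Normalised log2 intensity (y axes, scaled to each probe set) of 6 FGF receptor probe sets on each array of damage, differentiating and pluripotent cells, with the mean and SD of 3 arrays. The brightest probe set of each receptor gene is drawn. FGFR1 207822_at and FGFR2 208228_s_at were added for their adjusted p after DOX in limma's test (0.0035 and 0.0092), so their fall was part of the choice. FGFR3 is lowest in pluripotent arrays (mean 9.05), whereas the FGFR1, FGFR2 and FGFR4 probe sets drawn here are lowest in damage arrays. The FGFR1 probe set 226705_at, not drawn, has a mean of 9.66 in damage arrays, against 9.53 in pluripotent arrays. FGFR2 208234_x_at and FGFR4 1554962_a_at, not drawn either, are also not lowest in damage arrays.

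**Figure D3:**
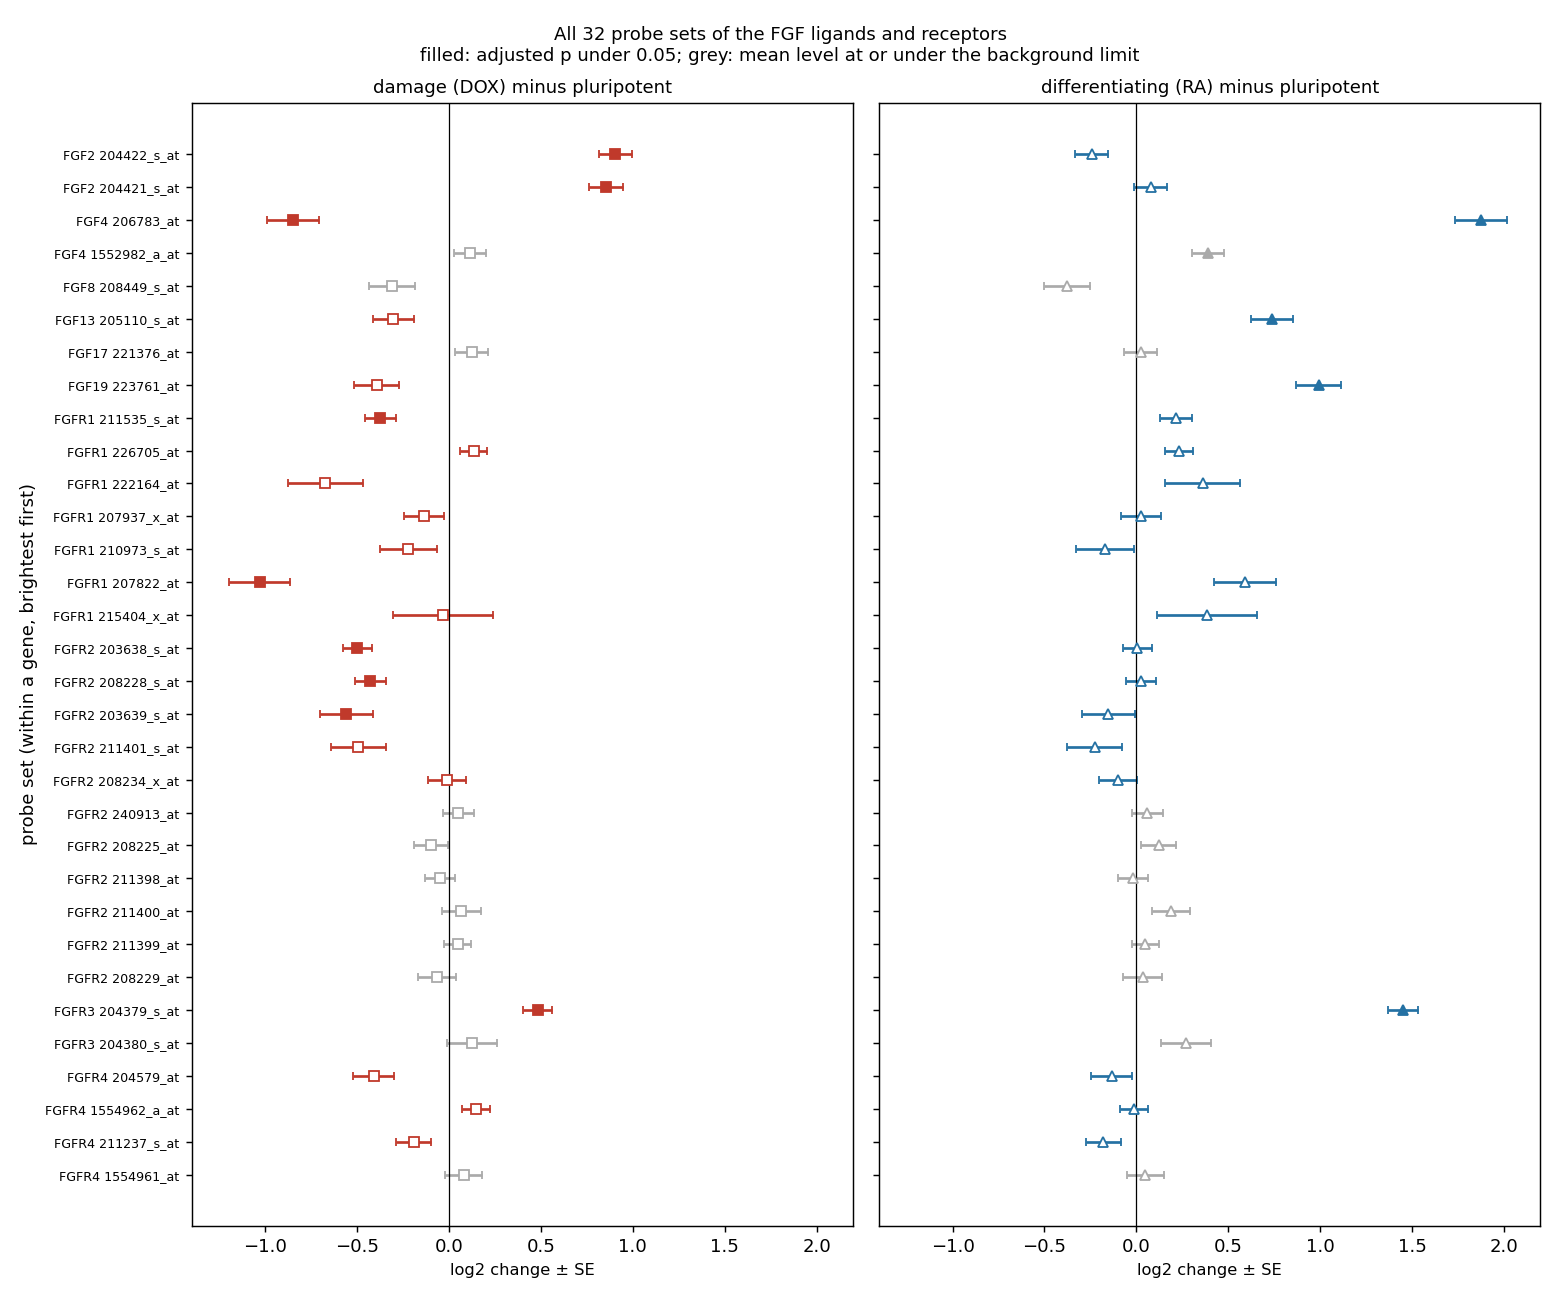
Log2 change (x axes) with its standard error for all 32 probe sets, with damage minus pluripotent on the left and differentiating minus pluripotent on the right. Filled symbols passed an adjusted p of 0.05, and grey ones have a mean at or under the background limit of 5.00. After DOX 3 are called higher and 6 lower, and after RA 5 higher.

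By gene, each given by its brightest probe set, the order of the levels in FGF4 and FGF19 was differentiating, pluripotent, damage. In FGF19 the pluripotent and damage arrays did not differ past the test. In FGF13 and in the brightest FGFR1 probe set the same order held for the means. For FGFR3 the order was differentiating, damage, pluripotent, with each step past the test. FGF2 was highest in damage arrays, and its differentiating and pluripotent levels were not separated. FGFR2 was lowest in damage arrays, with its differentiating and pluripotent levels not separated either. Other probe sets of a gene could differ in order. FGFR2 208234_x_at had means of 5.51 in damage, 5.43 in differentiating and 5.52 in pluripotent arrays. The dim FGF4 probe set had 4.32, 4.60 and 4.21.

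The 16 other FGF ligand genes were mostly dim, with 6 above the limit. Of the 16 genes 1 rose and 0 fell after DOX, and 0 moved in either direction past limma's test after RA, where 0 were higher and 1 lower at an unadjusted p under 0.05. FGF1, a ligand that binds all the FGF receptors, was the one that rose, with 6.20, 6.05 and 6.44 in damage and 4.70, 4.96 and 4.86 in differentiating arrays, against 5.29, 5.17 and 5.54 in pluripotent arrays. Its change was 0.90 ± 0.12 after DOX (1.86-fold, adjusted p = 0.0012) and −0.50 ± 0.12 after RA (adjusted p = 0.067). The median change of these 16 genes was 0.11 after DOX and 0.03 after RA, beside 0.00 for both over all 19775 genes with 1 probe set each. In this list and those below each gene is given by its brightest probe set.

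Among 10 measured co-receptors and FGF-binding proteins 2 rose and 2 fell after DOX, and 0 rose and 1 fell after RA. FLRT3, a membrane protein that binds FGF receptors, had 5.91, 6.01 and 6.48 in damage and 3.69, 4.05 and 4.24 in differentiating arrays, against 4.61, 4.44 and 4.50 in pluripotent arrays. It rose by 1.62 ± 0.16 after DOX (adjusted p = 0.00013) over a pluripotent level under the limit, where the size of the change is uncertain. Its relative FLRT2 rose by 0.67 ± 0.09 after DOX. FGFBP3, which releases FGFs from the matrix, had 7.38, 7.29 and 7.42 in damage and 6.14, 6.12 and 6.53 in differentiating arrays, against 7.81, 7.87 and 8.13 in pluripotent arrays. It fell by 0.58 after DOX (SE 0.12, adjusted p = 0.015) and by 1.67 after RA (SE 0.12, adjusted p = 2.2e-05). GLG1, a Golgi protein that binds FGFs, fell by 0.31 after DOX.

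Heparan sulfate proteoglycans and the enzymes that build or trim their chains were measured for 22 genes. After DOX 5 of these rose and 2 fell (median change 0.02), and after RA 2 rose and 3 fell (median 0.04). HS6ST2, which adds 6-O-sulfate to the chains, had 8.59, 8.67 and 8.82 in damage and 9.15, 9.63 and 9.74 in differentiating arrays, against 7.96, 7.94 and 7.80 in pluripotent arrays. It rose by 0.79 ± 0.14 after DOX and by 1.61 ± 0.14 after RA (adjusted p = 0.0048 and 6.8e-05). SULF2, which removes 6-O-sulfate, rose as well, by 1.22 ± 0.08 after DOX and 0.71 ± 0.08 after RA (adjusted p = 4.3e-06 and 0.00046). SDC4, a syndecan core protein, rose by 0.86 ± 0.09 after DOX. GPC4, a glypican core protein, had 11.12, 11.10 and 11.21 in differentiating arrays, against 12.34, 12.26 and 12.26 in pluripotent arrays, and fell by 1.15 after RA (SE 0.07). GLCE, the epimerase of heparan sulfate synthesis, fell by 1.42 after DOX and 1.30 after RA (SE 0.23 each), to means of 4.23 and 4.34, against 5.65 in pluripotent arrays. The treated means lie under the limit, so the size of these falls is uncertain.

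**Figure D4:**
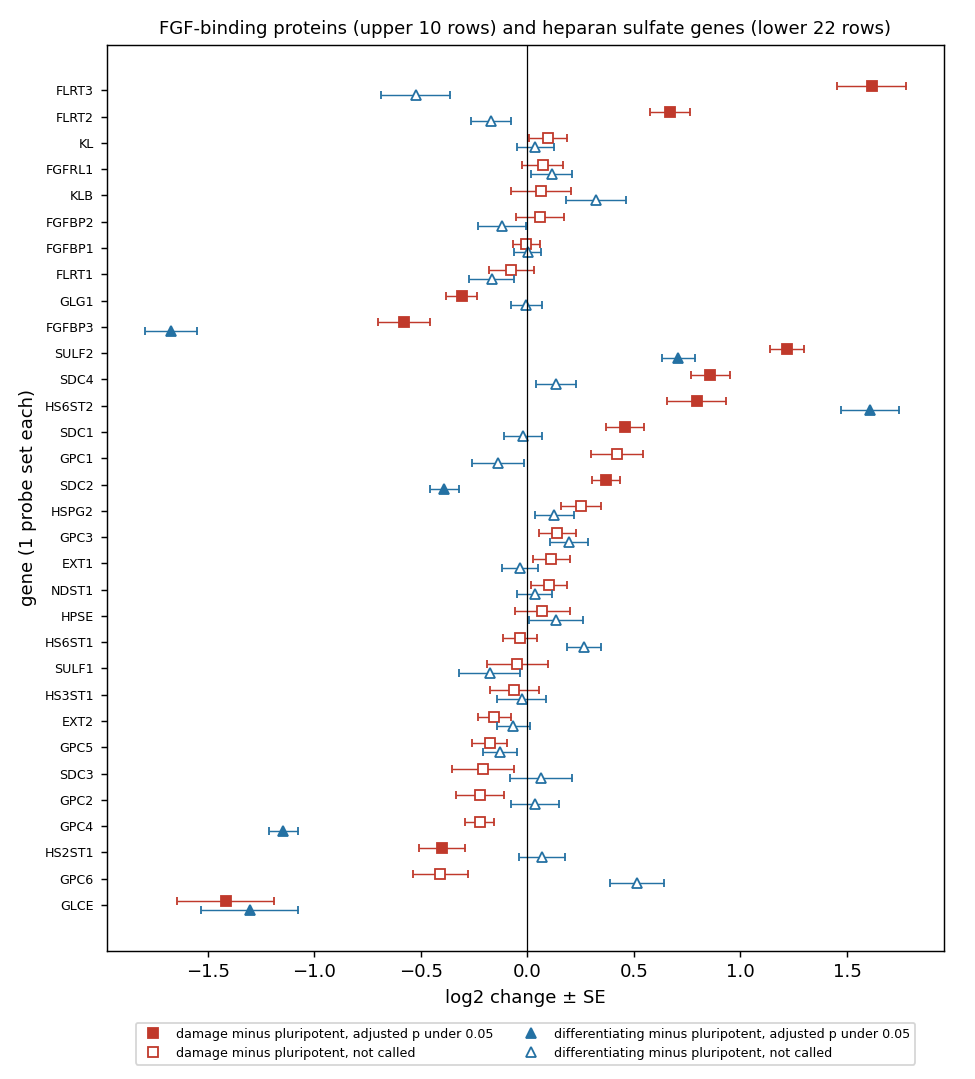
Log2 change with its standard error (x axis) of 10 FGF-binding proteins and co-receptors and 22 heparan sulfate genes, with damage minus pluripotent as squares and differentiating minus pluripotent as triangles. Filled symbols passed an adjusted p of 0.05. HS6ST2 and SULF2 rose in both comparisons, and FGFBP3 and GLCE fell in both.

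The relay from the receptors to ERK had 18 measured genes, all above the limit, of which 4 rose and 2 fell after DOX and 0 rose and 1 fell after RA. GAB1, a docking protein, fell by 0.61 after DOX (SE 0.10, adjusted p = 0.0026). HRAS, a small GTPase, rose by 0.50 (SE 0.10), RPS6KA1, a kinase downstream of ERK, by 0.47 (SE 0.09) and KSR1, a scaffold of the cascade, by 0.46 (SE 0.08). The gene that fell after RA was the adaptor SHC1, by 0.33 (SE 0.07, adjusted p = 0.027). Leaving out the third pluripotent array left 0 of the 18 called after RA.

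Feedback and target genes of FGF signalling rose after DOX in 10 of 16 cases and fell in 2, with a median change of 0.70, whereas after RA 4 rose and 4 fell with a median of −0.02. After DOX EGR1, an immediate-early transcription factor, rose by 2.80 ± 0.16, DUSP5, an ERK phosphatase, by 2.27 ± 0.08, PHLDA1, an ERK-responsive gene, by 2.11 ± 0.14 and DUSP6, the phosphatase most used as a readout of FGF signalling, by 1.38 ± 0.19. DUSP6 had 9.10, 9.34 and 9.32 in damage and 5.28, 5.51 and 5.99 in differentiating arrays, against 7.70, 7.65 and 8.25 in pluripotent arrays. The 3 conditions did not overlap for DUSP6, and it fell by 2.27 after RA (SE 0.19, adjusted p = 6.2e-05). EGR1 fell by 2.34 after RA (SE 0.16) and PHLDA1 by 1.11 (SE 0.14), but SPRED2, an inhibitor of the RAS to ERK step, rose by 1.16 ± 0.11. These genes also respond to signals other than FGF.

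**Figure D5:**
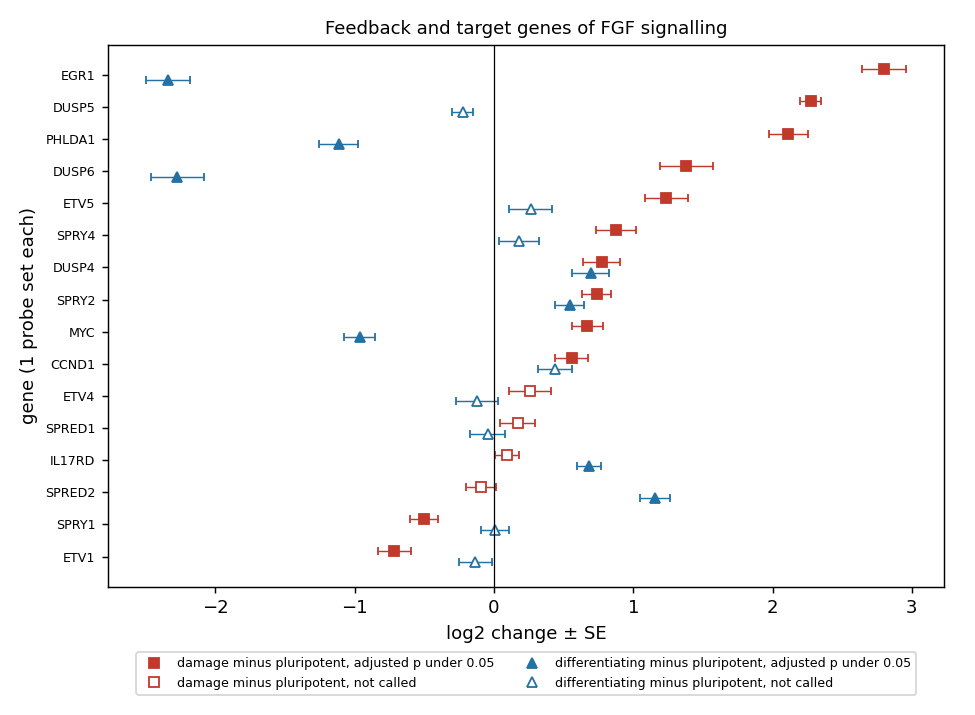
Log2 change with its standard error (x axis) of 16 feedback and target genes of FGF signalling, 1 probe set each, with damage minus pluripotent as squares and differentiating minus pluripotent as triangles. Filled symbols passed an adjusted p of 0.05. EGR1, DUSP6, PHLDA1 and MYC rose in damage and fell in differentiating arrays.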

How the data were processed

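The authors deposited 1-colour array intensities on the log2 scale, 1 for each probe set and array, and the submitters' processing notes name RMA and the package affy. Their versions are not stated. RMA corrects background, normalises probes by quantiles and summarises probe sets by median polish, which compresses changes of dim probe sets. The log2 scale was read from the range of the values.

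Of 54675 probe sets 62 controls were left out. The annotation gave 1 gene to 41091 of the rest. All 9 arrays were fitted with limma 3.58.1 in R 4.3.3 (lmFit, then eBayes; 6 residual degrees of freedom, with 4.64 more from the prior). Contrasts were DOX and RA against pluripotent, and RA against DOX, called at an adjusted p under 0.05. A gene with several probe sets is given by the one with the highest mean, except where the probe sets of the FGF genes are given separately. In each list up to 4 called genes with the largest change are named. The members and lists were chosen with earlier results of these data known. The scripts were tested on simulated data. At 3 arrays per condition the number of arrays limits the precision. Other settings of the spread, scaling, array weights, filters, probe set choice and arrays left out were tried, and their effect is given at the end. Sequences are from RefSeq, whose promoter table held 5 of the 10 genes.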

Additional observations from a re-analysis of the deposited data

How the results depend on the processing

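Of 25 called changes of FGF probe sets over the 3 comparisons, 22 kept their direction and call in every one of the other settings in which they were tested. The exceptions were the dim FGF4 probe set after RA and, after DOX, FGFR1 211535_s_at and FGFR2 203639_s_at. With only the 2 groups compared their adjusted p-values were 0.089, 0.063 and 0.085. Of 71 changes not called, 7 were called in at least 1 setting, among them FGFR4 204579_at after DOX (9 of 19 settings) and FGF19 after DOX (adjusted p = 0.046 when each gene had 1 probe set). Without x_at and s_at probe sets, which can match several transcripts, 0 FGF probe sets rose and 2 fell after DOX, 3 rose after RA, and 4 were higher and 0 lower in differentiating than in damage arrays, because both FGF2 sets, those of FGF13 and FGFR3, the brightest FGFR1 set and the bright FGFR2 sets have that suffix. The whole table then gave 1065 higher and 1537 lower after DOX, 500 and 442 after RA, and 2523 and 1573 for RA against DOX, instead of 1745 and 2466, 802 and 809, and 3882 and 2802. Fewer probe sets were tested in that setting, so these counts are not shares of the same total. The brightest remaining FGFR1 and FGFR2 probe sets were at 0.134 and 0.0499 after DOX (adjusted p = 0.31 and 0.78), the opposite sign. Dimmer FGFR1 sets without the suffix went down. The fall of 207822_at (−1.03) kept its call in this setting, and 222164_at was at −0.67 (adjusted p = 0.077 in limma's main fit). With 1 probe set per gene, fitted and adjusted over those 19775 genes alone, 1121 of them rose and 1898 fell after DOX. The 4.67% and 7.40% given earlier rest on adjustment over all 54613 probe sets. Of the 10 FGF genes 2 then rose and 5 fell after DOX, and 4 rose and 0 fell after RA. For RA against DOX 2498 of the 19775 genes were higher and 1704 lower, and 6 FGF genes were higher and 1 lower. With only probe sets above the background limit, a setting chosen after seeing the data, 10 FGF probe sets fell after DOX. In that setting 3079 of all 24212 probe sets fell.

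Without 1 array, FGF counts ranged from 4 to 8 lower after DOX (3 higher throughout), from 4 to 5 higher after RA, and from 9 to 10 higher for RA against DOX (2 lower throughout). Whole-table counts ranged from 1315 to 1720 higher and 1279 to 3028 lower after DOX, 495 to 748 higher and 501 to 776 lower after RA, and 2655 to 4185 higher and 2168 to 2904 lower for RA against DOX. Lower calls after DOX numbered 1279 without the first pluripotent array, 1296 without the second and 1615 without the third damage array. Calls after RA numbered 531 higher and 512 lower without the first differentiating array, 495 higher without the second, and 501 and 518 lower without the first and second pluripotent arrays.

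With the replicate number as a block, 3 FGF probe sets rose and 9 fell after DOX, and 6 rose and 0 fell after RA. The whole table of 54613 probe sets then gave 1810 higher and 2670 lower after DOX, and 858 and 824 after RA. Same-numbered arrays deviated together only in part (correlations of −0.103 to 0.199 over 9 pairs). Differently numbered arrays of different conditions gave −0.246 to 0.133. These ranges overlap and do not settle whether the numbers mark a pairing, so the main fit used none. Using the highest olfactory receptor probe set (5.64) as the limit left 18 rather than 21 FGF probe sets above it.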

Other observations

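FGF2 overlaps NUDT6, a gene on the opposite strand, which moved the other way after DOX. NUDT6 had 5.39, 5.16 and 5.58 in damage and 5.96, 6.47 and 6.57 in differentiating arrays, against 6.09, 6.03 and 5.88 in pluripotent arrays. It fell by 0.62 after DOX (SE 0.16, adjusted p = 0.034) and was at 0.33 ± 0.16 after RA (adjusted p = 0.43).

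FGF19 and FGF4 lie beside each other on chromosome 11, between CCND1 and LTO1 on one side and FGF3 and ANO1 on the other. These neighbours were looked up after the values of the FGF genes were seen. CCND1 rose by 0.56 ± 0.12 after DOX (adjusted p = 0.016), and was at 0.44 ± 0.12 after RA (adjusted p = 0.099). LTO1, FGF3 and ANO1 had means over the 9 arrays of 4.84, 4.12 and 4.68, under the limit of 5.00. After RA FGF3 was at −0.02 ± 0.07 and ANO1 at −0.05 ± 0.07, neither past the test.

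Among 3619 genes that differed between the 3 conditions, those whose levels followed FGF4 most closely over the 9 arrays were PSMB8 (Pearson r = 0.993), CPVL (0.992) and ARSL (0.990). For FGF2 they were PLAT (0.990), PRSS23 (0.989) and LIMA1 (0.989), and for FGFR3 KDM2B (0.989), HAS2 (0.988) and FABP5 (0.979). For FGF19 they were PCMTD2 (0.993), SLC7A2 (0.990) and B3GNT2 (0.988). For FGF13 they were L1TD1 (0.981), SASS6 (0.980) and CCL26 (0.978), for FGFR1 PRIMA1 (0.988), KANK1 (0.986) and CNNM4 (0.986), and for FGFR2 SMCO4 (0.992), UNC119 (0.989) and SMIM26 (0.985). The correlations are descriptions over arrays that fall into 3 groups.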
